A study of Mus musculus with 12 samples.

Results

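The effect of radiation on Lewis lung carcinoma (LLC) tumors that also received the antibody 13C4 was measured across all genes, in 3 irradiated tumors against 3 tumors that received 13C4 alone. These are 6 of the 12 tumors of the series. LLC is a mouse lung cancer line that forms tumors under the skin of C57BL/6 mice. The hosts were females 6 to 8 weeks old, treatment was allotted when tumors measured 60 to 80 mm3, and tumors were removed on day 19. 13C4 is the isotype control of 1D11, an antibody that binds and neutralizes TGF-beta, so the control tumors carried an antibody too, and TGF-beta was not blocked in either group. The labels give the irradiated group 5 fractions of 6 Gy in the sample characteristics and 2 Gy in the descriptions, and this conflict was not settled. The descriptions also mention LLC cells, but the protocol and source names describe tumors. The other 6 tumors received 1D11, 3 of them with the radiation, and they serve below as separate tumors in which the radiation effect could be measured a second time. No label says whether the 3 tumors of a group came from separate mice, so p-values measure the spread between these samples, which may be technical. The LLC line is a single cell line, and its tumors also hold the host's vessels, fibroblasts and immune cells.

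Ionizing radiation breaks DNA, and the transcription factor p53 then switches on genes that halt the cell cycle, start apoptosis and limit p53 itself. In a growing tumor the endothelial cells of the vessels and the pericytes that wrap them are also irradiated, as are fibroblasts. Dying cells release nucleic acids and antigens, which dendritic cells and macrophages take up and present to T cells on major histocompatibility complex (MHC) molecules. T cells and natural killer cells in turn make interferon gamma, which induces MHC genes and chemokines such as Cxcl9.

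Each tumor was measured on its own array, and values are log2 intensities of 1 probe set per gene. In all, 12735 of 18193 genes lay above the filter on low signal and were tested. Array medians ran from 62.3 to 66.1 on the linear scale. The epithelial keratins Krt8 and Krt18 stood at the 97.3 and 97.2 percentiles of all genes and Vim at the 99.9 percentile, whereas Cdh1 and the lung genes Sftpc and Nkx2-1 were below the filter. Skeletal muscle genes set individual tumors apart. All 21 muscle genes had a higher mean in the irradiated group, with a median log2 difference of 1.09, and none was called, although 4 were when control replicate 1 was left out, and 2 when radiation replicate 3 was left out with it. Their score, the mean of the members' log2 values centred over the 12 tumors, was 1.15, -0.85 and -1.12 in control replicates 1, 2 and 3 and -0.06, 0.61 and 1.87 in radiation replicates 1, 2 and 3. Summed muscle intensity ran from 3881 to 23349 in the controls and from 8789 to 36055 in the irradiated tumors. Myh4, a fast myosin heavy chain, read 10.21, 8.43 and 7.71 against 9.13, 10.15 and 11.78. The groups overlapped, with control replicate 1 and radiation replicate 3 highest. Acta1, the actin of skeletal muscle, and Ckm, its creatine kinase, differed by 1.08 ± 0.77 and 1.17 ± 0.84 (limma adjusted p = 0.488 and 0.493). Counts of called genes without this pair of tumors are given where they differ from the main count by over 1.5 times.

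Among the genes called higher after radiation were some of T cells, cytotoxic lymphocytes, phagocytes and antigen presentation, and among those called lower were some of endothelial cells, pericytes and mesenchyme. In each of these lists most members did not pass the test. A gene was called when its Benjamini-Hochberg adjusted p in limma's moderated test was under 0.05 over all 12735 genes. There were 304 called genes, 2.39% of those tested, of which 188 were higher (1.48%) and 116 lower (0.911%) after radiation. The median absolute change of the called genes was 0.55 on the log2 scale, and 27 rises and 17 falls exceeded 2-fold. Over all genes tested the median change was 0.00 and 49.6% were higher. The 2 groups did not overlap in 2624 genes, 20.6% of those tested, 10.6% with radiation higher and 10% with radiation lower. All 304 called genes were among them. Single tumors weighed on the count: leaving out radiation replicate 1 gave 39 and leaving out radiation replicate 2 gave 20. The count was 166 without control replicate 2, 170 without 1D11 replicate 2, and 189 and 182 without 1D11_radiation replicates 1 and 3. Leaving out the pair of tumors with high muscle signal gave 569, of which 213 were among the 304. Of the 91 called genes named here or under the other observations, 14 kept their call with any 1 of the 12 tumors left out, whereas 67 lost it without radiation replicate 1 and 77 without radiation replicate 2. None changed direction. In 9 of the 304 a group mean lay under the filter (log2 5.37), so the gene was tested through the group where it was high and the size of its change is uncertain. The named ones were Cxcl9, P2ry10, Cd80 and Slamf7, by their control means, and Tek, Muc1 and Hgf, by their means after radiation.

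**Figure D1:**
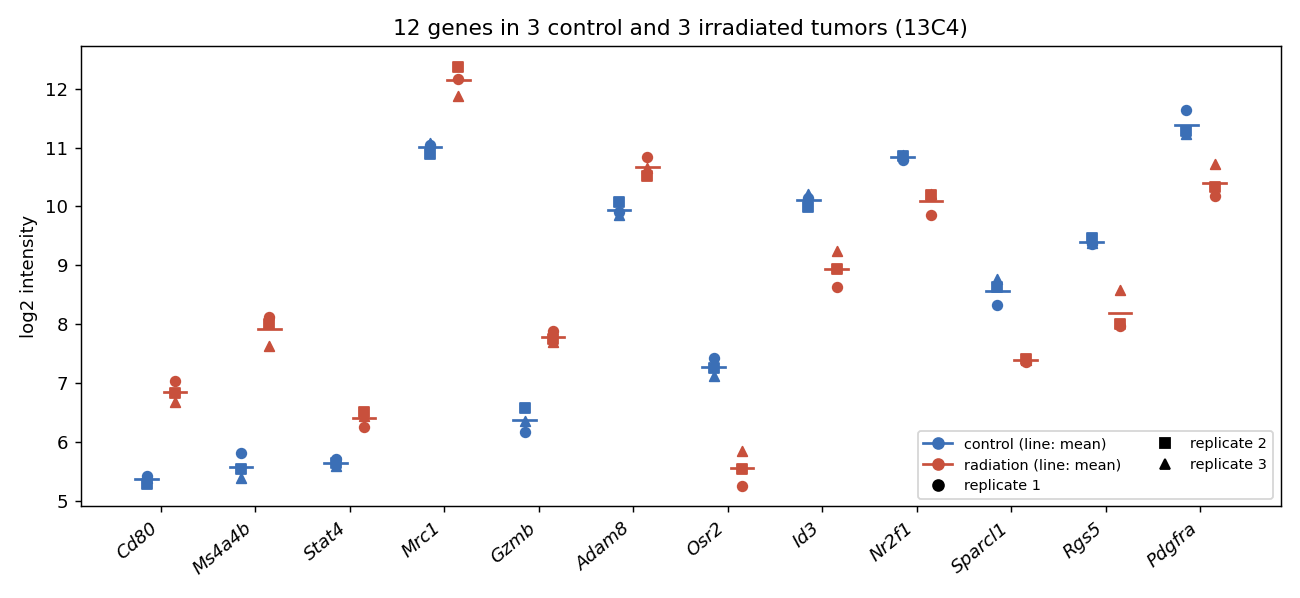
Log2 intensity of 12 genes in the 3 control (blue) and 3 irradiated (red) tumors given 13C4, with markers for the replicates and short lines at the group means (n = 3). The genes from Cd80 to Adam8 lie higher and those from Osr2 to Pdgfra lower in every irradiated tumor, with no overlap between groups, as in all called genes.

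Vessel genes were lower in nearly every member measured. Of 24 endothelial genes tested, 23 were lower after radiation and 8 were called, all lower, with a list median of -0.50 against 0.00 for all genes. Eng, a TGF-beta co-receptor on endothelium, was the exception at 0.00, a gene named after its value was seen. The largest endothelial fall was in Vwf, the von Willebrand clotting factor stored in endothelial granules. Vwf read 6.58, 7.82 and 7.89 in control replicates 1 to 3 and 6.15, 5.79 and 6.11 in the irradiated tumors. Control replicate 1 was nearest to the irradiated tumors, and the groups did not overlap (-1.41 ± 0.31, log2 change ± SE, n = 3 per group, limma adjusted p = 0.0432). The call in Vwf was lost without any 1 of 10 tumors. Ramp2, the adrenomedullin receptor partner that vessels need, read 8.81, 8.37 and 8.29 in the controls against 7.08, 7.11 and 7.68. It fell by 1.20 ± 0.17 (adjusted p = 0.0114), and the control highest in muscle signal was here the highest. Aplnr, the apelin receptor of sprouting vessels, read 9.04, 8.68 and 8.96 against 7.83, 8.18 and 8.06 and fell by 0.87 ± 0.12 (adjusted p = 0.00985). It was the endothelial gene that kept its call with any tumor left out. Tek, the angiopoietin receptor, was low on the array at 5.87 to 5.95 in the controls and 5.07 to 5.37 after radiation, a fall of 0.66 ± 0.13 (adjusted p = 0.0269). The transcription factor Sox18 fell by 0.72 ± 0.14, the secreted Egfl7 by 0.50 ± 0.09, and the junction and migration proteins Esam and Ecscr by 0.56 ± 0.13 and 0.65 ± 0.11, at adjusted p from 0.0215 to 0.0453. Esam lost its call without any 1 of 11 tumors.

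The markers most often used to count vessels were lower without being called. The adhesion molecule Pecam1 read 6.73, 7.37 and 7.51 in the controls and 6.78, 6.78 and 6.40 in the irradiated tumors, a difference of -0.55 ± 0.20 (adjusted p = 0.181). The endothelial cadherin Cdh5 read 6.92, 7.88 and 8.03 against 6.91, 6.94 and 6.74 (-0.75 ± 0.24, adjusted p = 0.128). In both genes control replicate 1 lay among or beside the irradiated tumors. Kdr, the main receptor of vascular endothelial growth factor, differed by -0.21 ± 0.10 (adjusted p = 0.287). The endothelial score was -0.06, 0.39 and 0.46 in the controls and between -0.28 and -0.24 in the irradiated tumors. Without control replicate 1 the count of called endothelial genes was 15, and without both tumors of high muscle signal it was 14. It was 2 and 3 without control replicates 2 and 3, and 2 and 1 without radiation replicates 1 and 2. In this bulk RNA, fewer cells of a type and less RNA per cell cannot be told apart. Among 17 genes of the VEGF, angiopoietin and apelin systems, Tek and Aplnr were the called members, both lower, and the list median was -0.23. There were 5 calls without control replicate 1, and 1 without control replicate 2, control replicate 3, radiation replicate 1 or radiation replicate 2, and 4 without both tumors of high muscle signal. Their median was -0.35 without control replicate 1. The Notch ligand Dll4 of sprouting tip cells differed by -0.32 ± 0.09 (adjusted p = 0.0844).

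Genes of pericytes, the cells that wrap small vessels, were also lower. Of 11 genes of pericytes and smooth muscle tested, 10 were lower and 4 were called, with a list median of -0.63. Des, an intermediate filament that skeletal muscle also makes, was the exception at 0.44 and was named after its value was seen. Pdgfrb, the receptor through which platelet-derived growth factor recruits pericytes, read 10.22, 9.03 and 9.15 in the controls and 7.69, 7.30 and 7.26 after radiation. Control replicate 1 was highest, and even the lowest control was 1.34 above the highest irradiated tumor (-2.05 ± 0.32, adjusted p = 0.0139). Rgs5, a regulator of G protein signalling that marks pericytes, read 9.37, 9.46 and 9.37 against 7.97, 8.01 and 8.58. The control SD was 0.05, and radiation replicate 3 lay nearest to the controls (-1.21 ± 0.20, adjusted p = 0.0188). The surface proteins Mcam and Cspg4 fell by 0.83 ± 0.15 and 0.44 ± 0.10 (adjusted p = 0.0223 and 0.0396). Cspg4 lost its call without any 1 of 10 tumors. Acta2, the smooth muscle actin, read 11.55, 10.53 and 10.31 against 10.75, 10.82 and 10.42, and the groups overlapped (-0.13 ± 0.25, adjusted p = 0.828). Without control replicate 1 the difference in Acta2 was 0.24, and without both tumors of high muscle signal 0.36. The pericyte potassium channel subunits Abcc9 and Kcnj8 differed by -0.81 ± 0.29 and -0.88 ± 0.33 and were not called (adjusted p = 0.171 and 0.186). The count of 4 was 2 without control replicate 2, 1 without radiation replicate 1 and 0 without radiation replicate 2. It was again 4 without both tumors of high muscle signal. The median was -0.35 without control replicate 1 and -0.41 without both. Of the ligands, Pdgfb, which endothelial cells release, differed by -0.48 ± 0.13 and Pdgfa by 0.47 ± 0.14 (adjusted p = 0.0739 and 0.0984).

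Fibroblast genes went in both directions. Of 21 fibroblast genes, 10 were higher and 11 lower after radiation, 2 were called, both lower, and the median was -0.09. Pdgfra, the growth factor receptor that marks fibroblasts, read 11.64, 11.28 and 11.23 in the controls against 10.17, 10.33 and 10.72. The groups did not overlap, and it fell by 0.98 ± 0.14 (adjusted p = 0.0114). Osr2, a zinc-finger factor of embryonic mesenchyme, read 7.42, 7.25 and 7.12 against 5.26, 5.53 and 5.85, so that the highest irradiated tumor was 1.26 below the lowest control (-1.72 ± 0.20, adjusted p = 0.0071). Dcn, a proteoglycan abundant in fibroblasts, read 13.31, 13.70 and 13.24 against 12.90, 12.65 and 13.52, with radiation replicate 3 among the controls (-0.40 ± 0.23, adjusted p = 0.394). The same tumor was closest to the controls in Lum, another proteoglycan, which read 12.71, 13.27 and 12.28 in the controls against 11.06, 10.65 and 12.89 and was not called (adjusted p = 0.212). Islr read 8.57, 7.28 and 7.96 against 5.62, 5.58 and 7.45 (adjusted p = 0.157). Without radiation replicate 2 the count of called fibroblast genes was 1, and without both tumors of high muscle signal it was 4.

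Of 21 transcription factors of mesenchyme tested, 5 were higher and 16 lower, with a median of -0.09. There were 4 calls, all lower, against 0.911% of all genes called lower. In 9 members the groups did not overlap, all with radiation lower, against 10% of all genes. Besides Osr2 the called genes were Lhx9, Nr2f1 and Hic1. Lhx9, a LIM homeobox factor, read 8.15, 7.26 and 7.46 against 5.84, 6.06 and 6.48 (-1.50 ± 0.26, adjusted p = 0.0215). The nuclear receptor Nr2f1 read 10.78, 10.85 and 10.88 against 9.86, 10.19 and 10.22, with a control SD of 0.05 and a fall of 0.75 ± 0.10 (adjusted p = 0.00888). Hic1 fell by 0.48 ± 0.10 (adjusted p = 0.0368). Meox1 and Foxc1 differed by -0.45 ± 0.11 and -0.90 ± 0.23 (adjusted p = 0.0522 and 0.0659). The count was 2 when either of radiation replicates 1 and 2 was left out, and 7 without both tumors of high muscle signal. Other mesenchymal genes among the 20 largest falls were Mest, an imprinted gene of embryonic mesoderm (-1.61 ± 0.33), the secreted Lrrc17 (-1.57 ± 0.33), the hedgehog co-receptor Cdon (-1.34 ± 0.27) and Tmem119 (-0.97 ± 0.16), at adjusted p from 0.0174 to 0.0342.

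Few matrix genes were called. None of 17 collagens was called, although 13 were lower and the median was -0.26. The count was 1 without radiation replicate 3 and 3 without 1D11_radiation replicate 2. With the muscle score as a covariate 5 were called, all lower, and without both tumors of high muscle signal 1 was called, higher. The median was -0.14 without control replicate 1. Col6a1 and Col6a2, chains of the microfibrillar collagen VI, differed by -0.93 ± 0.28 and -1.10 ± 0.34 (adjusted p = 0.105 and 0.113), and Col12a1 by 1.22 ± 0.30 (adjusted p = 0.0579). Col12a1 read 7.46, 7.42 and 7.11 in the controls against 9.04, 8.56 and 8.04, with no overlap. Of 8 small leucine-rich proteoglycans, Aspn was called. Aspn, which binds TGF-beta and collagen, had the largest fall of all called genes: it read 9.91, 8.57 and 8.33 against 6.46, 6.21 and 7.02 (-2.38 ± 0.47, adjusted p = 0.0294). Its call was lost without radiation replicate 1 or 2 or control replicate 2. Sparcl1, a matricellular protein, read 8.32, 8.63 and 8.76 against 7.35, 7.41 and 7.40, with no overlap between groups (-1.18 ± 0.15, adjusted p = 0.00806). Edil3, an integrin-binding protein of vessel matrix, fell by 1.01 ± 0.13 (adjusted p = 0.00806), and 4 of its 6 probe sets went that way. Adam8 and Timp1 rose among 21 proteases and inhibitors. Adam8, a metalloprotease of leukocytes, read 9.90, 10.08 and 9.86 against 10.85, 10.51 and 10.65 (0.72 ± 0.09, adjusted p = 0.00806). Timp1, the inhibitor of matrix metalloproteases, rose by 0.54 ± 0.12 (adjusted p = 0.0498) and lost its call without any 1 of 11 tumors.

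Some called falls were in genes of growth factor signalling, where the lists gave few calls. In the Id and BMP list 1 of 14 was called (median -0.13), and among Wnt antagonists 1 of 8 (median -0.14, and -0.01 without radiation replicate 1). Id3, a helix-loop-helix inhibitor induced by bone morphogenetic proteins, averaged 10.11 ± 0.10 (SD) in the controls and read 8.63, 8.93 and 9.24 after radiation. The groups did not overlap, and Id3 fell by 1.18 ± 0.15 (adjusted p = 0.00816). Its list held 2 calls without control replicate 1 or without radiation replicate 3. Frzb, a secreted Wnt antagonist, read 6.63, 7.30 and 7.27 against 5.88, 6.03 and 6.03 and fell by 1.08 ± 0.15 (adjusted p = 0.0111), a call lost without radiation replicate 1 or 2. Spry1, a feedback inhibitor of receptor tyrosine kinases, read 8.85, 8.86 and 8.73 against 7.44, 7.53 and 8.06 (-1.14 ± 0.16, adjusted p = 0.0111). The ephrin ligand Efna1 fell by 0.97 ± 0.17, the serine protease Prss23 by 1.11 ± 0.23 and Lgalsl by 1.26 ± 0.19, at adjusted p from 0.0139 to 0.0377.

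Genes of the TGF-beta pathway itself gave 1 call among ligands and receptors. Of 14 ligand, receptor and activation genes, Tgfb3 was called, and the median was -0.03. Tgfb3, the ligand most tied to mesenchyme, read 9.24, 8.97 and 8.62 in the controls against 7.83, 7.93 and 8.53, with radiation replicate 3 next to the lowest control (-0.85 ± 0.19, adjusted p = 0.0491). Its call was lost without any 1 of 10 tumors. The main ligand Tgfb1 read 6.86, 7.19 and 6.97 against 7.51, 7.17 and 7.18, and the groups overlapped (0.28 ± 0.11, adjusted p = 0.211). Tgfb2 differed by -0.48 ± 0.22 and the receptor Tgfbr1 by -0.32 ± 0.12 (adjusted p = 0.283 and 0.199). The receptor Tgfbr2 and the induced inhibitor Smad7 differed by -0.05 ± 0.10 and -0.02 ± 0.10 (adjusted p = 0.857 and 0.925). Of 19 targets and feedback genes, Timp1 was the 1 called, and the median was -0.02. Pmepa1, a feedback inhibitor induced by TGF-beta, read 8.88, 8.61 and 7.99 against 7.50, 7.36 and 7.72 (-0.97 ± 0.28, adjusted p = 0.0923).

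Targets of p53 were higher in most cases, and 4 of 30 were called, all of them higher. In all, 25 were higher and 5 lower, the median was 0.43, and 16 had groups that did not overlap with radiation higher (background 10.6%). Mdm2, the ubiquitin ligase that degrades p53, read 9.94, 10.41 and 10.47 in the controls against 10.94, 10.83 and 10.88. The irradiated tumors lay close together and above every control (0.61 ± 0.12, adjusted p = 0.0294). The apoptosis nuclease Aen read 9.27, 9.54 and 9.58 against 9.83, 9.92 and 9.92 (0.43 ± 0.08, adjusted p = 0.0239). The death receptor Tnfrsf10b was near the filter, at 5.38 to 5.49 against 5.80 to 6.00 (0.44 ± 0.08, adjusted p = 0.0223). The epoxide hydrolase Ephx1 read 7.32, 7.43 and 8.37 against 9.10, 9.17 and 8.80 and rose by 1.32 ± 0.28 (adjusted p = 0.0371). Cdkn1a, which encodes the cell cycle inhibitor p21, read 10.88, 12.11 and 12.28 against 12.58, 12.52 and 12.54. All irradiated tumors were above all controls, but control replicate 1 was far below the other controls, and the call was not met (0.79 ± 0.27, adjusted p = 0.151). Pmaip1, the BH3-only protein Noxa, showed the same layout at 6.75, 8.28 and 8.23 against 9.11, 9.10 and 8.76 (1.24 ± 0.35, adjusted p = 0.0916). Sesn1 and, named after its value was seen, Gadd45a were lower, at -0.40 ± 0.11 and -0.61 ± 0.21 (adjusted p = 0.0819 and 0.154). The p53 score was -0.58, -0.17 and -0.06 in the controls and 0.11 to 0.18 in the irradiated tumors. The count of 4 was 9 without control replicate 3, 2 without 1D11 replicate 2, and 0 without radiation replicate 1 or 2.

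Other genes of damage and growth gave few calls. Of 28 DNA repair genes, Xrcc4, a partner of the ligase that joins broken ends, was the 1 called, lower by -0.44 ± 0.10 (adjusted p = 0.0437), and the median was -0.01. Of 9 cell cycle inhibitors and senescence genes, Cdkn2c, the inhibitor p18, fell by 0.64 ± 0.12 and the secreted Igfbp7 by 0.71 ± 0.16 (adjusted p = 0.0264 and 0.0437). The calls in Xrcc4, Cdkn2c and Igfbp7 were lost without any 1 of 10, 2 and 9 tumors. The inhibitor and senescence list held 4 calls without control replicate 1, 0 without radiation replicate 1 or 2, and 1 without control replicate 2 or 3, any 1D11 replicate, or 1D11_radiation replicate 1 or 3. Igfbp3 read 9.25, 11.82 and 11.63 in the controls against 9.83, 9.39 and 9.55, so that control replicate 1 stood with the irradiated tumors (-1.31 ± 0.54, adjusted p = 0.221). Mitosis genes were higher in 29 of 31 cases with a median of 0.18, and none was called by limma. An unadjusted p was under 0.05 for 18.7% of all genes. Ckap2, a spindle protein, differed by 0.37 ± 0.09 (adjusted p = 0.0507), and the cyclin Ccnb2 by 0.27 ± 0.07 (adjusted p = 0.0835). Without control replicate 1 the number of mitosis genes called was 9, and without control replicate 3 it was 1. It was 7, all higher, without both tumors of high muscle signal. The median of the mitosis genes became 0.32 when control replicate 1 was left out, and 0.07 when the third control was. DNA replication genes were higher in 8 of 26 cases, with a median of -0.09 and no call by limma, and 1 call without control replicate 1 or radiation replicate 3.

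Cytotoxic lymphocyte genes were higher in all 11 members tested, and 4 were called. Their median was 1.01, and it was 0.58 without control replicate 3 and 0.44 without radiation replicate 3. The member at the median was Gzmg, which was not called (adjusted p = 0.536) and was high in radiation replicate 3 alone. Gzmb, the granzyme that starts apoptosis in target cells, read 6.17, 6.57 and 6.35 in the controls against 7.89, 7.74 and 7.70. The irradiated tumors lay close together and at least 1.13 above the highest control (1.41 ± 0.22, adjusted p = 0.0139). Gzma read 5.53, 6.08 and 5.52 against 6.78, 6.81 and 6.89 (1.12 ± 0.26, adjusted p = 0.0497), a call lost without any 1 of 10 tumors. Ccl5, a chemokine that activated T and natural killer cells secrete, read 7.38, 6.58 and 6.52 against 8.49, 8.54 and 8.46, with an SD of 0.04 after radiation (1.67 ± 0.24, adjusted p = 0.0116). Klrd1, the CD94 chain of natural killer receptors, read 6.69, 6.17 and 5.57 against 7.81, 8.06 and 7.54 (1.66 ± 0.28, adjusted p = 0.0189). The pore-forming Prf1 read 6.37, 6.01 and 5.70 against 6.12, 6.10 and 6.32, and the groups overlapped (0.15 ± 0.20, adjusted p = 0.738). The natural killer receptor Ncr1, Fasl and Ifng were below the filter. Gzmg was at 7.14 in radiation replicate 3 and at most 5.48 in the other 5 tumors. It belongs to a family of near-identical granzymes that probes may not separate. Gzmc, Gzmd and Gzmf are also members of this list, so its members may not all be separate readings. The count of 4 was 0 without radiation replicate 1 or 2. It was 3 without both tumors of high muscle signal, with a median of 0.57.

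T cell genes gave fewer calls. Of 10 T cell genes above the filter, 2 were called, both higher, and 8 more were below the filter. Cd3d, a chain of the T cell receptor complex, read 6.14, 5.83 and 5.96 against 6.68, 6.88 and 6.43 (0.69 ± 0.13, adjusted p = 0.0264). Stat4, the factor through which interleukin 12 acts on T and natural killer cells, read 5.71, 5.64 and 5.58 against 6.25, 6.51 and 6.44 (0.75 ± 0.08, adjusted p = 0.0071). Both sat near the low end of the tested range, and neither showed overlap between groups. Cd3e differed by 0.23 ± 0.09 (adjusted p = 0.195), and the coreceptors Cd8a and Cd4 by -0.03 ± 0.08 and -0.08 ± 0.09 (adjusted p = 0.879 and 0.716). The costimulatory receptor Icos read 6.85 and 6.82 in radiation replicates 1 and 2 and 5.85 in replicate 3, within the controls (0.61 ± 0.22, adjusted p = 0.167). The count of 2 was 1 without control replicate 2 or 3 or radiation replicate 1 or 2.

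Ms4a4b, a membrane protein of T cells, was the largest rise of all called genes. It read 5.80, 5.53 and 5.38 in the controls against 8.12, 8.00 and 7.62, which put the lowest irradiated tumor 1.82 above the highest control (2.34 ± 0.29, adjusted p = 0.00806). Of 10 genes of its family tested, 9 were higher and Ms4a4c was called as well (0.82 ± 0.19, adjusted p = 0.0498). Ms4a4c lost its call without any 1 of 11 tumors. Ms4a6b, Ms4a6d and Ms4a7, which macrophages express, differed by 0.56 ± 0.15, 0.47 ± 0.14 and 0.60 ± 0.18 (adjusted p from 0.0746 to 0.103). Other lymphocyte receptors among the 20 largest rises were P2ry10, a lysophospholipid receptor, and Gpr171. P2ry10 read 5.58, 4.76 and 5.13 against 7.81, 7.86 and 6.01, and Gpr171 read 5.71, 6.06 and 5.56 against 7.26, 7.67 and 6.33. Radiation replicate 3 lay nearest to the controls in both (2.07 ± 0.41 and 1.31 ± 0.27, adjusted p = 0.029 and 0.0342). The control mean of P2ry10, 5.16, lay under the filter. AW112010, an interferon-induced transcript of lymphocytes and myeloid cells, rose by 1.56 ± 0.34 (adjusted p = 0.0425). Fgl2, a prothrombinase that regulatory T cells and macrophages secrete, rose by 1.24 ± 0.22 (adjusted p = 0.022).

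Cd80, the ligand with which antigen-presenting cells engage CD28 and CTLA-4 on T cells, separated the groups widely. It read 5.41, 5.29 and 5.39 in the controls and 7.02, 6.83 and 6.68 after radiation, a rise (1.48 ± 0.15, adjusted p = 0.0071) that kept its call with any tumor left out. Its control mean of 5.36 lay under the filter, so the size of the rise is uncertain. Of its 4 probe sets, 3 went the same way. Cd80 was the 1 called of 15 costimulation and checkpoint genes tested, and 5 were called without radiation replicate 3, and 4 without both tumors of high muscle signal. The related ligand Cd86 read 6.85, 7.11 and 6.86 against 7.62, 7.44 and 6.91 and overlapped (0.38 ± 0.17, adjusted p = 0.249), and Cd274, which encodes PD-L1, differed by 0.49 ± 0.18 (adjusted p = 0.181). Cd83, a surface protein of mature dendritic cells, read 6.56, 6.61 and 6.65 against 7.97, 7.79 and 7.17 (1.03 ± 0.17, adjusted p = 0.0155). It was the 1 called of 14 dendritic cell genes, of which 11 were higher. That count was 2 without control replicate 1, control replicate 2 or 1D11_radiation replicate 2, and 0 without radiation replicate 1 or 2. It was 3 without both tumors of high muscle signal. The integrin Itgax and the cytokine receptor Flt3, which define dendritic cells, differed by 0.28 ± 0.16 and 0.59 ± 0.17 (adjusted p = 0.359 and 0.0994).

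MHC class II genes were higher in 9 of 10 cases with a median of 0.51, and 1 was called. Ciita, the coactivator of these genes, was the exception at -0.04 ± 0.15 and was named after its value was seen. H2-Aa, the alpha chain of the I-A molecule, read 10.02, 9.85 and 9.40 in the controls against 11.31, 11.54 and 10.66 (1.42 ± 0.28, adjusted p = 0.0315). H2-Ab1, H2-Eb1 and the invariant chain Cd74 showed the same order of tumors. H2-Ab1 read 8.75, 8.64 and 8.09 against 9.94, 10.10 and 9.10 (1.22 ± 0.29, adjusted p = 0.0502), and H2-Eb1 read 9.08, 8.81 and 8.42 against 10.19, 10.43 and 9.39 (1.23 ± 0.30, adjusted p = 0.0541). Cd74 differed by 1.02 ± 0.27 (adjusted p = 0.0739). In each of the 4 genes radiation replicate 3, the tumor with the most muscle signal, was the lowest of the irradiated tumors yet above every control. Without it 5 class II genes were called, and 5 again without both tumors of high muscle signal. The count was 3 without control replicate 1, 2 without 1D11_radiation replicate 2, and 0 without control replicate 2, control replicate 3, 1D11 replicate 2 or either of radiation replicates 1 and 2.

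Class II promoters carry a shared element, the Y box, that nuclear factor Y binds. Of the 6 class II genes with a promoter in the RefSeq table of build GRCm38.p6, 3 held the letters CTGATTGG in the 250 bases before the start, on either strand, against 6.00% of 10247 promoters of tested genes. The stretch around the motif is shown for H2-Aa and H2-Eb1, called and not called, with the Y box in capitals.
H2-Aa (chr17:34287850-34287919, minus strand): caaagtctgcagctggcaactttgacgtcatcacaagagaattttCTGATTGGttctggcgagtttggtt
H2-Eb1 (chr17:34305760-34305829, plus strand): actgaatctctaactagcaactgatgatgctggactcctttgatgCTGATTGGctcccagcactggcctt
The box ended 44 and 55 bases before the start of H2-Aa and H2-Eb1. A match is a description of the letters and not a measured site. Among all called genes the motif stood in 15 of 160 promoters of those that rose (9.38%) and 5 of 93 of those that fell (5.38%).

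Class I genes were nearer to no change, with 8 of 12 higher, a median of 0.12 and 1 call. Nlrc5, the coactivator of class I genes, read 6.59, 7.45 and 6.96 against 8.05, 8.09 and 7.77 (0.97 ± 0.21, adjusted p = 0.041), while the peptide transporter gene Tap1 differed by 0.36 ± 0.13 (adjusted p = 0.166). The call in Nlrc5 was lost without any 1 of 8 tumors.

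Macrophage genes were called in 4 of 25 cases, all higher, although 8 were lower and the median was 0.19. Mrc1, the mannose receptor CD206, read 11.05, 10.89 and 11.08 in the controls against 12.17, 12.37 and 11.88 (1.14 ± 0.15, adjusted p = 0.00888) and kept its call with any tumor left out. The integrin Itgam, shared by macrophages and neutrophils, rose by 0.59 ± 0.13 (adjusted p = 0.0453), a call lost without any 1 of 10 tumors. The lineage receptor Csf1r read 12.22, 11.73 and 11.56 against 11.70, 11.87 and 11.96 and differed by 0.00 ± 0.22 (adjusted p = 0.997). Adgre1, the F4/80 antigen, differed by 0.51 ± 0.18 (adjusted p = 0.159), and the chemokine receptor Cx3cr1 by -0.65 ± 0.16 (adjusted p = 0.0611). The count was 2 and 1 without radiation replicates 1 and 2.

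Genes of receptors for the constant part of IgG were higher in 7 of 8 cases, with a median of 0.58, and 3 were called. Fcgr4, an activating receptor, read 6.88, 7.57 and 7.05 against 8.57, 8.90 and 8.02 (1.33 ± 0.23, adjusted p = 0.0189). The high-affinity Fcgr1 read 8.55, 8.71 and 8.29 against 9.20, 9.54 and 9.32 (0.84 ± 0.13, adjusted p = 0.0139). Their shared signalling chain Fcer1g read 10.97, 11.16 and 10.82 against 11.52, 11.65 and 11.47 (0.56 ± 0.11, adjusted p = 0.0278). The activating chain and both receptors kept the groups apart. The inhibitory Fcgr2b and the activating Fcgr3 differed by 0.60 ± 0.18 and 0.48 ± 0.14, also without overlap (adjusted p = 0.103 and 0.108). The count of 3 was 1 and 0 without radiation replicates 1 and 2. Complement genes were higher in 11 of 11 cases with a median of 0.34, and none was called by limma. Cfp, which encodes properdin, and Cfb, factor B of the alternative pathway, differed by 0.77 ± 0.20 and 0.83 ± 0.22 (adjusted p = 0.0727 and 0.0754), and 1 complement gene was called without control replicate 1.

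Chemokines gave 4 calls of 25, all higher, with a median of 0.36. Cxcl9, which draws T cells through Cxcr3, read 5.33, 6.04 and 4.67 in the controls against 8.34, 7.99 and 6.41. The groups were apart by less than the spread within each (2.23 ± 0.47, adjusted p = 0.0348), and the call was lost without any 1 of 8 tumors. The control mean of Cxcl9, 5.34, lay under the filter. Ccl12, a ligand of Ccr2 on monocytes, read 9.58, 9.67 and 9.23 against 10.55, 10.78 and 10.44 (1.10 ± 0.15, adjusted p = 0.00985). Ccl6 rose by 0.60 ± 0.11 (adjusted p = 0.0238). Ccl8 read 9.80, 11.17 and 10.15 against 12.01, 12.24 and 11.39 and was not called (1.51 ± 0.43, adjusted p = 0.0922). The count was 1 and 0 without radiation replicates 1 and 2. Of 17 cytokine genes 14 were higher, and Csf1, the macrophage growth factor, was the 1 called (0.48 ± 0.11, adjusted p = 0.0466), and this call was lost without any 1 of 10 tumors. Interferon response genes were higher in 21 of 25 cases with a median of 0.34, but Cxcl9 was the 1 called. Irf8 and Oasl1 differed by 0.62 ± 0.15 and 0.37 ± 0.10 (adjusted p = 0.0587 and 0.0819). Without control replicate 2, which had the highest interferon score of the controls at 0.10, 5 were called. The count was 2 without 1D11_radiation replicate 2, and 0 without control replicate 1 or 3, any 1D11 replicate, radiation replicate 1 or 2, or 1D11_radiation replicate 3. The median was 0.16 without control replicate 3. The interferon-stimulated response element, searched on both strands, stood in 10 of 19 promoters of this list and in 3.07% of all, and in 6 of 160 promoters of called genes that rose (3.75%).

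**Figure D2:**
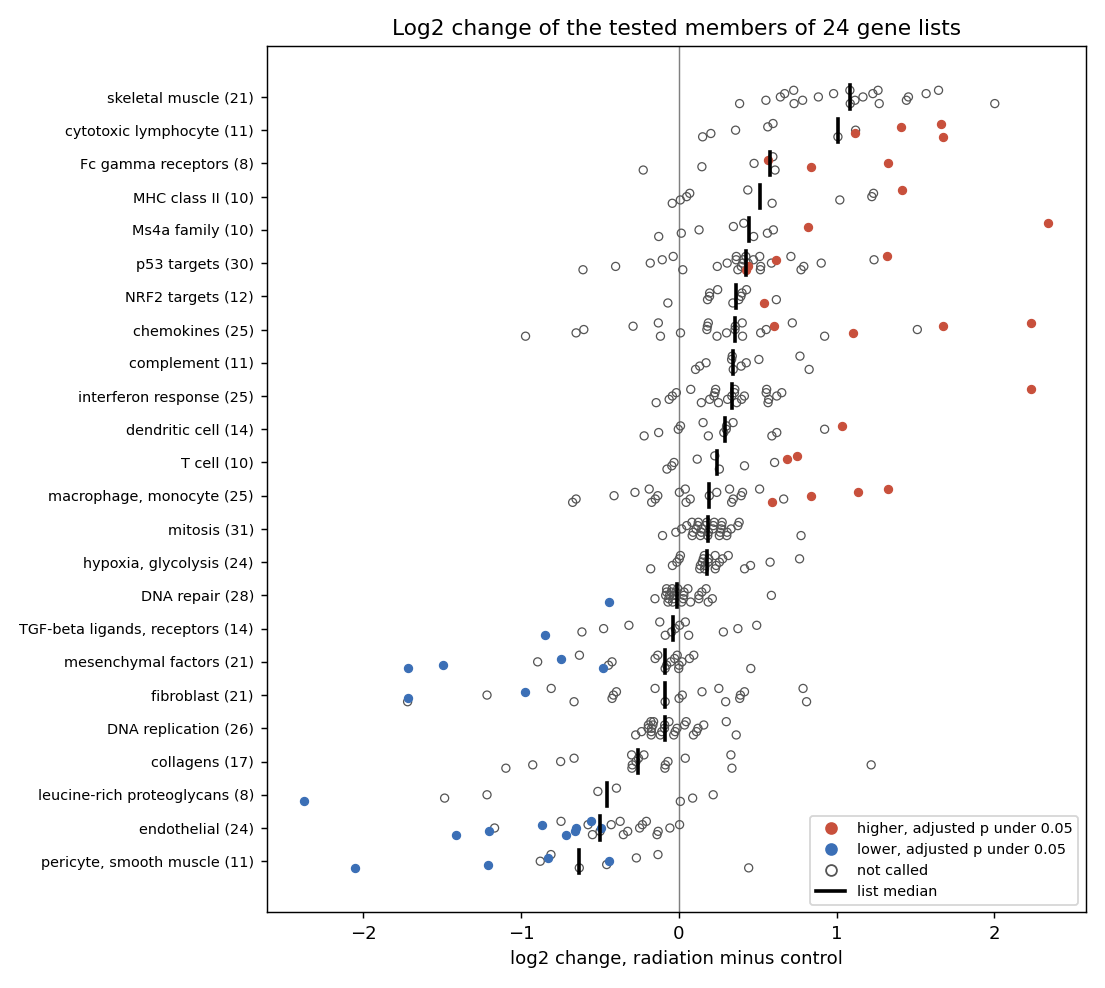
Log2 change (radiation minus control, 13C4) of the tested members of 24 gene lists, ordered by list median; numbers in brackets give the members tested, filled points are called genes and black bars are medians. Calls lie to the right in the immune and p53 lists and to the left in the endothelial, pericyte and mesenchymal lists, and all 21 muscle genes lie to the right without a call.

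Lists of oxidative stress, epithelial and hypoxia genes gave few calls, and the cells that carry these genes cannot be told apart in bulk RNA. Among 12 targets of the oxidative stress factor NRF2, 11 were higher with a median of 0.36. The drug exporter Abcc1 was called, at 11.12, 11.16 and 11.19 against 11.89, 11.66 and 11.53 (0.54 ± 0.09, adjusted p = 0.0139), a call lost without radiation replicate 2. The glutathione synthesis genes Gclc and Gclm differed by 0.38 ± 0.10 and 0.34 ± 0.10 (adjusted p = 0.066 and 0.111), and no irradiated tumor overlapped the controls. The mucin Muc1 fell by 0.40 ± 0.08 (adjusted p = 0.0327), a call lost without any 1 of 8 tumors. In the hypoxia and glycolysis list 21 of 24 members were higher, with a median of 0.18 and no call by limma. The median was 0.04 without control replicate 1, and 7 were called, all higher, with a median of 0.34 when the muscle score entered as a covariate. The hypoxia marker Car9 read 5.86, 6.80 and 6.98 against 7.45, 7.44 and 7.04 (0.77 ± 0.28, adjusted p = 0.181). The remaining large rises were Klf5, an epithelial growth factor-responsive transcription factor (1.22 ± 0.22), Tgfa, a ligand of the EGF receptor (1.18 ± 0.16), the sialic acid lyase Npl (1.15 ± 0.23) and Erc2 (1.33 ± 0.23), at adjusted p from 0.00888 to 0.0327. Of the 3 probe sets of Tgfa, 1 rose, so this value rests on a single probe set.

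Markers of immediate stress, such as Fos family and heat shock genes, had a median of -0.05. Their score was 0.42 in radiation replicate 1, but it ran from -0.17 to 0.06 among the other tumors given 13C4. Array weights, which limma lowers for arrays with large residuals, were lowest for control replicate 1 at 0.297 and radiation replicate 3 at 0.359. With the muscle score as a covariate 575 genes were called, 255 of them among the 304. With that covariate the counts moved by over 1.5 times in several lists. There were 13 p53 targets called higher and 1 lower, against 4 higher without it. The covariate gave 4 cytokine genes against 1, 3 costimulation genes against 1 and 5 fibroblast genes against 2, in the same directions. Of the TGF-beta ligand and receptor genes 1 was then called higher and 3 lower. The counts were 6 endothelial and 5 pericyte genes, all lower, and 3 cytotoxic, 3 Fc receptor and 1 class II genes, all higher. There were 2 calls each among proteoglycans, Id and BMP genes, TGF-beta targets and stress genes, 1 in the Ms4a family, 1 neutrophil gene and 0 repair genes. Without control replicate 1 and radiation replicate 3 the remaining counts that moved by over 1.5 times were as follows. There were 4 calls in the inhibitor and senescence list and 2 each among DNA replication genes, proteoglycans and Id and BMP genes. Proteases, Ms4a, complement, Toll-like receptor, mast cell and respiratory chain genes had 1 each, and repair, class I and epithelial genes 0. The part of stress RNA in the gene differences was not tested.

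**Figure D3:**
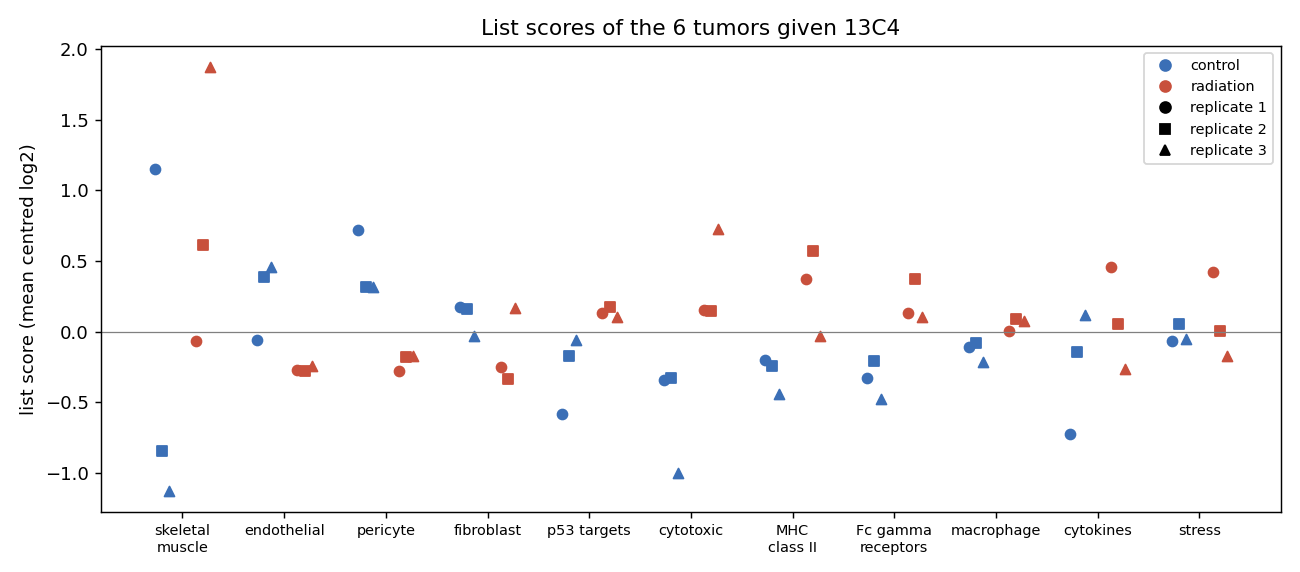
List scores (mean of the members' log2 values, each centred over the 12 tumors) in the 6 tumors given 13C4, controls in blue and irradiated tumors in red, with a marker per replicate. Endothelial, pericyte, p53, cytotoxic, class II, Fc receptor and macrophage scores do not overlap between groups, whereas muscle, fibroblast, cytokine and stress scores do.

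In the tumors given 1D11, the same radiation was followed by the same direction in most of the 304 genes, with smaller medians. These 6 tumors share no array with the comparison above, though the variance was estimated over all 12. Of the 188 rises, 163 (86.7%) were also higher with radiation under 1D11, against 42.4% of all genes. An unadjusted p under 0.05 in that direction was reached by 84 (44.7%), against 5.21% of all genes, and 5 were lower with such a p. The median change of the 188 was 0.54 under 13C4 and 0.20 under 1D11. Of the 116 falls, 107 (92.2%) were lower under 1D11, against 57.6% of all genes, and 80 (69.0%) had an unadjusted p under 0.05, against 10.3% of all genes. Their medians were -0.56 and -0.34. The first median of each pair comes from the comparison that chose the genes, which favours large values there. Under 1D11 alone 10 genes were called (0.0785%).

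Some large falls of mesenchymal and pericyte genes had like values under 1D11 and others smaller ones, and several of the largest immune rises stood near 0 or below it there. Osr2 differed by -1.72 ± 0.20 under 1D11 and under 13C4, Rgs5 by -1.19 and -1.21, and Pdgfra by -0.85 and -0.98. Lhx9 differed by -1.46 under 1D11 and -1.50 under 13C4. Aspn differed by -1.32 under 1D11 and -2.38 under 13C4, and Pdgfrb by -0.88 and -2.05. Aplnr differed by -1.66 under 1D11 and -0.87 under 13C4. Adam8, Abcc1 and Ephx1 differed by 0.67, 0.59 and 1.02 under 1D11. By contrast Ms4a4b differed by 0.33 under 1D11, Cxcl9 by 0.13, H2-Aa by -0.10, Stat4 by 0.00, Cd83 by -0.41 and Fcgr1 by -0.36. Frzb differed by 0.13 and Vwf by -0.23. Interferon response genes had a median of 0.34 under 13C4 and -0.56 under 1D11, and class II genes 0.51 and -0.06. Macrophage genes had medians of 0.19 under 13C4 and -0.22 under 1D11, Fc receptor genes 0.58 and -0.17, and complement genes 0.34 and -0.19. Dendritic cell, Ms4a and class I lists also had medians above 0 under 13C4 and below it under 1D11. T cell, chemokine and costimulation medians were 0.03, 0.01 and 0.01 under 1D11. Some immune lists were higher under both antibodies. Cytotoxic lymphocyte genes had medians of 1.01 (the value of Gzmg, above) under 13C4 and 0.49 under 1D11, where 10 of 11 were higher. Cytokine medians were 0.43 and 0.66, and neutrophil medians 0.23 and 0.81. These are values side by side. The test of the difference between the effects, limma's interaction term, called 0 genes, with a smallest adjusted p of 0.265. An unadjusted interaction p under 0.05 was found for 952 genes (7.48%). The 0 calls by adjusted p became 21 without control replicate 1 and 122 with array weights.

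**Figure D4:**
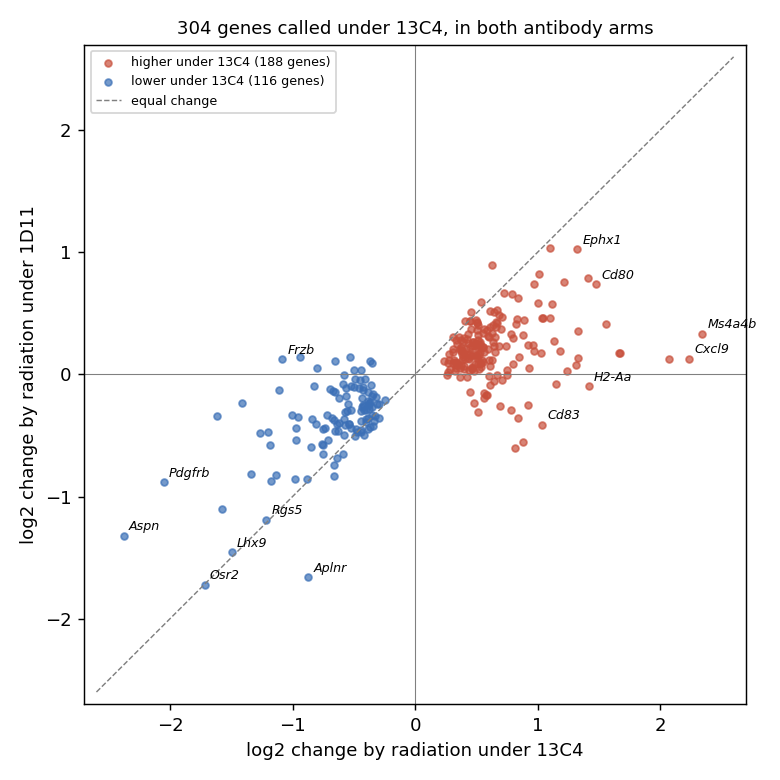
Log2 change by radiation under 13C4 (horizontal) and under 1D11 (vertical) for the 304 genes called under 13C4, 188 higher in red and 116 lower in blue, with equal changes on the dashed line. Most points keep their sign, and the red points lie mostly below the line.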

How the data were processed

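The authors' deposited value table holds an intensity per probe set on a linear scale for each Affymetrix array. How background was corrected, and which software normalized and summarized the probes, is not given in the sources used here. Sorted log2 values of the arrays lay within 0.13 of one another, so no further normalization was applied. Per the labels' protocols, 6 µg of total RNA per tumor went into the biotin cRNA. With 3 arrays per group, their number limits the precision.

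The log2 values were computed here from the deposited intensities. The probe table paired 34945 of 45101 probe sets with a single gene symbol, and each gene was represented by its probe set with the highest mean. The filter removed the lowest 30 percent of gene means (log2 under 5.37). Tests used limma 3.58.1 in R 4.3.3, with a mean for each of 4 groups fitted to all 12 arrays and eBayes (8 residual and 3.11 prior degrees of freedom). They were two-sided, with Benjamini-Hochberg adjustment over 12735 genes. The code was checked on simulated data with known changes. The simulated noise was independent between genes, so the check does not cover variation that the genes of a tumor share.

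The named genes were the 20 largest rises and falls, every called member of 47 gene lists, up to 4 further members with the smallest p and the defining markers in lists described, and 8 fixed genes of TGF-beta and p53. Comparison, lists and rule were chosen with earlier results of these data known, so no pattern here is independent support of those. Lists are described by counts and medians, with no set test. Promoters are RefSeq's, build GRCm38.p6, for 5 motifs searched on both strands. Alternatives were the probe set rule, normalization, filter, offset, array weights, trend, groups fitted, replicate block, muscle covariate and tumors left out.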

Additional observations from a re-analysis of the deposited data

How the results depend on the processing

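The 304 calls became 193 with the mean of a gene's probe sets, 191 with all 31526 probe sets as features, 890 with array weights and 575 with the muscle covariate. They became 6 when only these groups were fitted, where fewer residual degrees of freedom remain, and 569 when control replicate 1 and radiation replicate 3 were left out together. Without single tumors they ran from 20 to 436. For these changes the cause was not tested. Quantile normalization gave 314 calls, of which 51.6% were higher against 61.8% in the main setting. The replicate block gave 206 calls, 192 of them among the 304. Replicate numbers did not pair the tumors: in 3 of 18 same-number pairs the residual correlation was above 0.1 (range -0.31 to 0.27), and between control and radiation it ran from -0.31 to -0.11. The 10 calls under 1D11 became 35 when probe sets were averaged, 1491 with array weights, 1 with the replicate block, and 1 to 227 without single tumors. The 0 interaction calls became 122 with array weights and 0 to 21 without single tumors, and stayed 0 with averaged probe sets and with the block. No called gene named changed direction in any setting, though leaving out tumors cannot reverse groups that do not overlap. Of the named calls, 6 were kept when only these groups were fitted, and 69 with the block. Small uncalled differences changed sign. With the muscle covariate Prf1 was -0.13, Csf1r -0.29, Smad7 0.0535, Eng -0.00561, Des -0.35, Acta1 -0.22, Ckm -0.238 and Ciita 0.0641. Quantile normalization put Csf1r at -0.0263 and Eng at -0.00806, averaged probe sets put Tgfbr2 at 0.000239 and Eng at -0.0189, and array weights put Eng at -0.0856, Acta2 at 0.221 and Ciita at 0.11. Without both tumors of high muscle signal Cd4 was 0.0114, Acta2 0.363, Eng -0.11 and Ciita 0.13. With tumors left out Acta2 ran from -0.374 to 0.243, Cd8a from -0.116 to 0.0331, Cd4 from -0.126 to 0.0114, Prf1 from -0.0129 to 0.322, Csf1r from -0.135 to 0.195, Tgfbr2 from -0.0893 to 0.0127, Smad7 from -0.0965 to 0.0565, Eng from -0.107 to 0.0577 and Ciita from -0.203 to 0.131. A group mean under the filter limits the size of change in Cd80, P2ry10, Cxcl9, Slamf7, Tek, Muc1 and Hgf, and signal near it that in Ms4a4b, Osr2, Tnfrsf10b and Stat4.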

Other observations

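Further called genes, outside the naming rule and picked after their values were seen, are given in 3 sets that were put together from called genes, with no list or test behind them. The first holds genes of lymphocytes, myeloid cells and interferon, most of them higher. Itgb7, the beta chain of the gut-homing integrin, read 9.56, 9.89 and 9.74 in the control replicates against 10.63, 10.66 and 10.56 (0.89 ± 0.10, limma adjusted p = 0.0071). Slamf7, a receptor of natural killer and plasma cells, rose by 0.80 ± 0.10 (adjusted p = 0.00806) with a control mean under the filter, and Pf4, the platelet chemokine that macrophages also make, by 1.04 ± 0.13 (adjusted p = 0.00806). These 3 kept their call with any 1 of the 12 tumors left out. The tetraspanin Cd53 rose by 0.48 ± 0.08, the lymphotoxin chain Ltb by 0.93 ± 0.18, and the interferon-inducible GTPases Gbp6 and Ifi47 by 0.92 ± 0.16 and 0.88 ± 0.19, at adjusted p from 0.0179 to 0.0432. Under 1D11 the radiation effect on Gbp6 and Ifi47 was -0.25 and -0.55. The surface protein Cd200, an inhibitory ligand for myeloid cells, fell by 0.94 ± 0.18, and Ifngr1, a chain of the interferon gamma receptor, by 0.58 ± 0.11 (adjusted p = 0.0269 and 0.0264).

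In the second set, of receptor tyrosine kinase signalling, the rise of Tgfa stood beside a fall of its receptor Egfr (-0.47 ± 0.11, adjusted p = 0.0468) and of the EGF receptor antagonist Lrig1 (-0.35 ± 0.07, adjusted p = 0.0291). The downstream genes Fosl1, Dusp5 and Etv4 rose by 0.63 ± 0.12, 0.79 ± 0.16 and 0.51 ± 0.12 (adjusted p from 0.0238 to 0.0495). Spry1, the feedback inhibitor of such receptors named above, went the other way, with a fall of 1.14 (adjusted p = 0.0111). Whether signalling differed was not tested. Egfr differed by -0.47 under 1D11. The calls in Egfr, Dusp5 and Etv4 were lost without any 1 of 10, 8 and 11 tumors. In the alternative settings other than single tumors left out, the change in Egfr ran from -0.487 to -0.145. Its call was lost when probe sets were averaged, and the value of Tgfa rests on a single probe set. Hgf, the ligand of the receptor Met that fibroblasts make, fell by 0.36 ± 0.06 (adjusted p = 0.0139). It was near the filter at 5.68 to 5.73 in the controls and 5.31 to 5.39 after radiation.

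The third set is of the cell cycle. The methyltransferase Ezh2 rose by 0.50 ± 0.10, the factor E2f8 by 0.45 ± 0.09, the cyclin Ccnd2 by 0.47 ± 0.09, the p53 partner Gtse1 by 0.53 ± 0.08 and the checkpoint gene Hus1 by 0.50 ± 0.11 (adjusted p from 0.0139 to 0.0432). The calls in Hus1 and Ccnd2 were lost without any 1 of 10 and 5 tumors. The inhibitor Cdkn2c was called lower (-0.64, adjusted p = 0.0264). In the lists, 29 of 31 mitosis genes were higher and 18 of 26 DNA replication genes lower, with no call in either. E2f8 and Gtse1 differed by -0.14 and 0.09 under 1D11. Of the 2 probe sets of E2f8, 1 rose, and its call was lost when probe sets were averaged.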
